A study of Mus musculus with 20 samples.

Results

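The crystallin genes examined here were 9 in number, Cryaa, Cryab, Cryba1, Cryba2, Cryba4, Crybb1, Crybb2, Crybb3 and Crygs. They were found as the probe sets (groups of short probes that each read a stretch of an exon) that the array's gene table assigns to them. Of the 9 genes, 8 had probe sets, 46 in all among the 194293 on the array, and Cryba4 had none assigned there. Of these 8 genes, 6 were bright enough to be tested with the 11850 tested genes of 15800. Cryba1 and Cryba2 fell among the dimmest 25% of genes, so their values come from a fit of all 15800 genes with no filter on dim genes.

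The samples were retinas of Nrl-/- mice of the C57Bl/6J strain at 1, 2, 4, 6 and 10 months after birth, with 4 mice at each age and the pair of retinas of 1 mouse on each of 20 exon arrays. Nrl is the factor by which a young photoreceptor becomes a rod. Without it, cells that would be rods turn into cone-like cells. The series follows how these cones fare with age, and no retina with an intact Nrl gene is among its 20 arrays. Every mouse carried the deletion, so all comparisons are between ages of 1 genotype. Levels are log2 intensities after RMA, a normalization that gives all arrays a like distribution, and they say how a gene differs between arrays, not how 1 gene compares with another.

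Crystallins fill the fiber cells of the eye lens, where their dense and stable packing makes the tissue transparent and refractive. The alpha crystallins Cryaa and Cryab belong to the small heat shock proteins, which bind unfolding proteins and keep them from clumping. The beta and gamma crystallins (Cryba, Crybb and Cryg genes) form another family, built as structural proteins of the lens. Cryaa and the beta and gamma members are found above all in the lens, whereas Cryab is also made in muscle, heart, brain and retinal glia. Reports of crystallins in the retina itself exist for alpha and beta members, so RNA read in a retina sample can come from retinal cells or from lens left at dissection. In whole retinas fewer cells of a type and less RNA per cell cannot be told apart.

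The cone genes Opn1sw, which encodes the short-wave cone pigment, and Arr3, which encodes cone arrestin, were bright on all 20 arrays, at 13.49 to 13.77 and 11.77 to 12.50. At percentile 32 of all genes by mean level, Nrl was at 5.93 to 6.54 over 6 probe sets, above the filter level of 5.61. Its target Nr2e3, a repressor of cone genes in rods, was at 5.12 to 6.25. Whether the Nrl probe sets lie in the deleted part of the gene is not known here. The array least like the rest was replicate 4 of 4 months, whose values correlated with those of the others at 0.9845 on average. Replicate 3 of 10 months came next, at 0.9864. Both tested Y-linked genes were low at 2 months throughout, and at 10 months in replicates 2 and 3. Eif2s3y lay at 3.84 to 4.09 at 2 months against 8.21 to 8.84 at 1 month, and at 3.81 and 4.35 in those arrays of 10 months. Kdm5d followed the same arrays, at 3.93 to 4.64 at 2 months against 7.65 to 7.83 at 1 month.

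The promoters of the crystallin genes are shown because these genes are a textbook case of control by large Maf factors, the family to which Nrl also belongs. These factors bind a palindrome-like sequence with TGCTGA on each side. The 250 bases before the annotated start of transcription were read from the RefSeq promoter table of GRCm38.p6, which holds 8 of the 9 genes and has no entry for Cryab. Capitals mark TGCTGA, or TCAGCA where it lies on the opposite strand. The first 4 are promoters of genes that fell with age, and that of Crybb2 is shown as the 1 member promoter without the letters; like Cryba2 and Crybb3, it did not pass the test. Cryaa was read from chr17:31677681-31677930 on the plus strand, Cryba1 from chr11:77725294-77725543 on the minus strand, Crybb1 from chr5:112255570-112255819 on the plus strand, Crygs from chr16:22811411-22811660 on the minus strand and Crybb2 from chr5:113070118-113070367 on the minus strand.
Cryaa: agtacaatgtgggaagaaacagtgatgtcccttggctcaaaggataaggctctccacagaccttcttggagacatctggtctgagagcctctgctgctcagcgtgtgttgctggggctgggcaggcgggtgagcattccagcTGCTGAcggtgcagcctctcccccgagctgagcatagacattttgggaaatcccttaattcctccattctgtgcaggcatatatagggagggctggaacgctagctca
Cryba1: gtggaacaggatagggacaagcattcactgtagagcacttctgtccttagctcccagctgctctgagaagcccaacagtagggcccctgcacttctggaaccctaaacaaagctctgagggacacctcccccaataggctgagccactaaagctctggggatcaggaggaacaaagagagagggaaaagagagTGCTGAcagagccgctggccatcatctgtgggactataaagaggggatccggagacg
Crybb1: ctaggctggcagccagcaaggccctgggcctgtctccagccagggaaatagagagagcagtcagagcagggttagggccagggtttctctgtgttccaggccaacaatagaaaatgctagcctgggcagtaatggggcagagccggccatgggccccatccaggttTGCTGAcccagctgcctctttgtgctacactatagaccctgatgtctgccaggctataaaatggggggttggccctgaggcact
Crygs: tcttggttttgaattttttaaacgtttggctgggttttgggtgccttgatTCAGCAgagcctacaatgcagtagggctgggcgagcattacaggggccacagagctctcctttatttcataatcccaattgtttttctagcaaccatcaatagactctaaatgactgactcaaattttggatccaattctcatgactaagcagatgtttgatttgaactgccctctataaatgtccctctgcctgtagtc
Crybb2: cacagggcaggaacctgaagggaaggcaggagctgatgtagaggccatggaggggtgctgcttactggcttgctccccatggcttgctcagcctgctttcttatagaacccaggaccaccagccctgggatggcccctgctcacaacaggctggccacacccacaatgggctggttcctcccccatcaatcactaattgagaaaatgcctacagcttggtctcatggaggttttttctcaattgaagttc

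TGCTGA stood on either strand in 7 of the 8 promoters, all but that of Crybb2, against 16.1% of 32851 promoters of this length. It began at position -108 from the start in Cryaa, -57 in Cryba1, -84 in Crybb1 and -200 in Crygs. Cryba2 and Crybb3 each held 1 copy, and Cryba4, which the array did not measure, held 3 copies. Of the chromosome 1 gamma crystallins that fell in the fit with no filter, the promoters of Crygb and Crygd held 0 copies and that of Crygc 1. TATAAA, the letters of a TATA box, stood in 3 of the 8 promoters against 12.4% of all, at -23 in Cryba1, -30 in Crybb1 and -25 in Crygs. A pair of heat shock units as GAANNTTC was in 0 of the 8 against 6.69% of all, and as TTCNNGAA in 1 of the 8, Cryba1, against 7.17% of all. The 4 motifs were searched on both strands, no match of one overlapped a match of another in the printed promoters, and a match is a stretch of letters, not a measured binding site. Crybb1 and Cryba4 are neighbours on chromosome 5 in the RefSeq gene table, as are Crybb2 and Crybb3, and Cryab lies next to the small heat shock gene Hspb2 on chromosome 9.

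The 7 measured crystallins other than Cryab had their highest mean at 1 month, whereas Cryab had its highest mean at 10 months. Cryaa, Crybb1 and, outside the filter, Cryba1 were called lower at each later age, and Crygs at 2, 4 and 10 months. Of these falls, those of Cryaa and Cryba1 were the largest, at 3.59- to 6.63-fold, against 1.83- to 2.11-fold in Crybb1. Between 2 and 10 months no tested crystallin passed the test from age to age. One array of 6 months, replicate 2, broke this pattern in some of the lens crystallins. Cryaa, Cryba1 and Crygs lay inside their range of 1 month there, and Cryba2 and Crybb2 above theirs. Crybb1 and Crybb3 lay below their range of 1 month in that array.

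**Figure D1:**
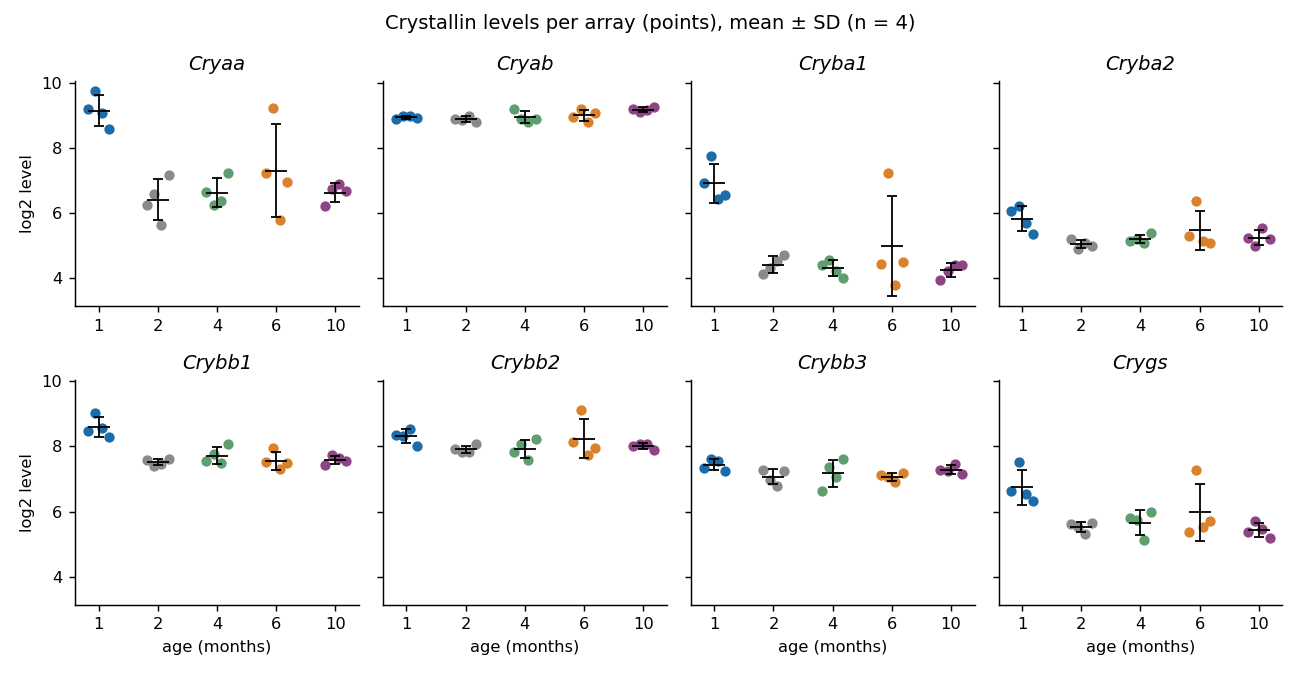
Log2 level of 8 crystallin genes on each array by age in months, 1 panel per gene on a shared vertical axis; points are arrays and bars the mean ± SD (n = 4). The 4 arrays of 1 month lie above the later ages for Cryaa, Cryba1, Crybb1 and Crygs, except for 1 array of 6 months at 9.22 in Cryaa, 7.24 in Cryba1 and 7.28 in Crygs, and Cryab stays between 8.79 and 9.25 throughout.

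Cryaa encodes alphaA-crystallin, the lens chaperone. The 4 arrays of 1 month gave 9.18, 9.74, 9.06 and 8.58. At 2 months they gave 6.25, 6.57, 5.64 and 7.18, at 4 months 6.65, 6.25, 6.36 and 7.24, and at 10 months 6.21, 6.73, 6.88 and 6.66. No array of these ages reached the lowest of 1 month. At 6 months the arrays gave 7.23, 9.22, 5.78 and 6.96, so replicate 2 lay inside the range of 1 month and the other 3 below it. Relative to 1 month, Cryaa fell by 2.73 ± 0.49 (log2, SE) at 2 months, which is 6.63-fold (limma, adjusted p = 0.00184). It fell by 2.52 ± 0.49 at 4 months, or 5.72-fold (adjusted p = 0.00183), and by 2.52 ± 0.49 at 10 months, or 5.74-fold (adjusted p = 0.000424). At 6 months Cryaa fell by 1.84 ± 0.49, or 3.59-fold (adjusted p = 0.0142). Without replicate 2 of 6 months the difference was -2.48 (adjusted p = 0.000293), and without replicate 3 it was -1.34 and no longer passed the test (adjusted p = 0.0592). With only the 8 arrays of both ages in the fit it did not pass either (adjusted p = 0.054).

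Of the 6 tested crystallins, 3 fell at 2 months, Cryaa, Crybb1 and Crygs, where 5.27% of all tested genes were called lower. The same 3 fell at 4 months (8.24% of all genes called lower) and at 10 months (20.7%), and 2, Cryaa and Crybb1, fell at 6 months (8.46%). At 10 months 41.3% of all genes were called in either direction. The median difference of the 6 from 1 month was -0.74, -0.63, -0.57 and -0.65 at 2, 4, 6 and 10 months, against 0.01, 0.01, 0.01 and 0.04 over all tested genes. The 4 comparisons share the arrays of 1 month, so they are not independent of each other. Crygs was among the 6 because the arrays where it was high lifted its mean over the filter on dim genes. An F test over all ages called Cryaa (adjusted p = 0.000924), Crybb1 (6.73e-05) and Crygs (0.0157), 3 of the 6, where limma called 38.4% of all genes.

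**Figure D2:**
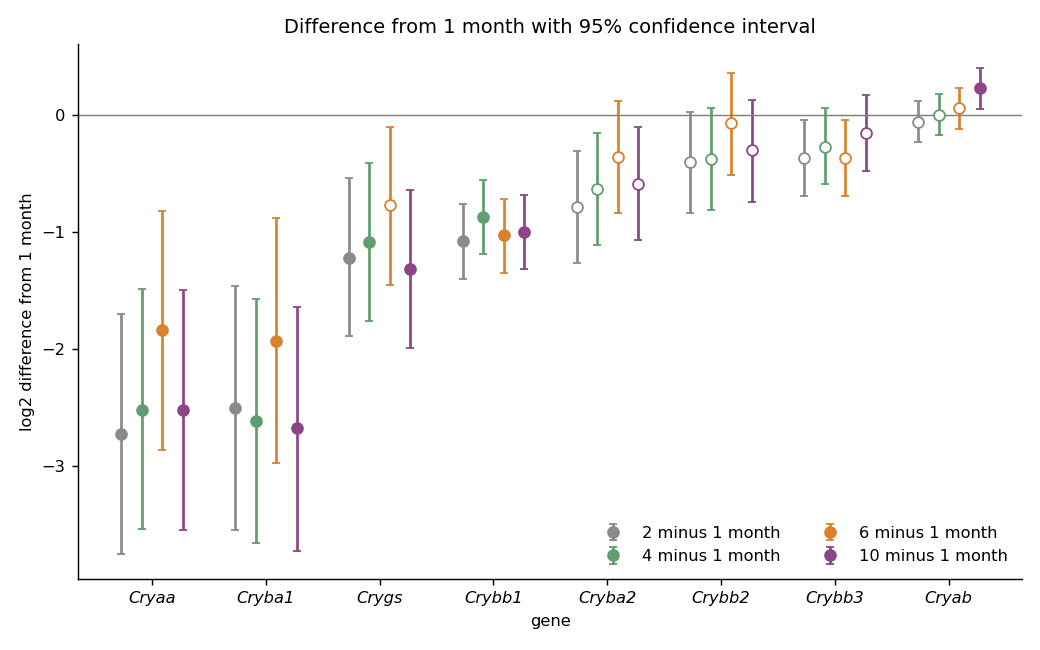
Log2 difference from 1 month at each later age with its 95% confidence interval, genes in order of size; filled circles passed the test and open ones did not, with Cryba1 and Cryba2 from the fit with no filter. Cryaa and Cryba1 lie between -1.84 and -2.73, Crybb1 near -1, and Cryab at 0.23 or less.

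Among the beta crystallins, structural proteins that pair into dimers and larger complexes, Crybb1 had the smallest standard error. Its arrays gave 8.48, 9.03, 8.57 and 8.29 at 1 month and 7.57, 7.40, 7.47 and 7.62 at 2 months. They gave 7.54, 7.78, 7.48 and 8.07 at 4 months, 7.51, 7.95, 7.30 and 7.48 at 6 months and 7.44, 7.74, 7.65 and 7.54 at 10 months. No later array reached the lowest of 1 month, replicate 2 of 6 months included. Crybb1 fell by 1.08 ± 0.15 at 2 months, 0.87 ± 0.15 at 4 months, 1.03 ± 0.15 at 6 months and 1.00 ± 0.15 at 10 months, a fall of 1.83- to 2.11-fold. The adjusted p-values by limma were 0.00032, 0.000769, 0.000161 and 3.83e-05, and each call held without any 1 array. With the brightest probe set alone in place of all 4, the difference at 4 months was -0.33 and did not pass the test (adjusted p = 0.0798).

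Cryba1, whose products are betaA3- and betaA1-crystallin, gave 6.92, 7.76, 6.42 and 6.56 at 1 month. Its 4 arrays lay at 4.11 to 4.70 at 2 months, 4.01 to 4.56 at 4 months and 3.93 to 4.40 at 10 months, with no overlap with 1 month. At 6 months it was at 4.42, 7.24, 3.78 and 4.50, so replicate 2 again lay inside the range of 1 month. In the fit with no filter it fell by 2.51 ± 0.50, 2.62 ± 0.50, 1.93 ± 0.50 and 2.68 ± 0.50 at 2, 4, 6 and 10 months, or 3.81- to 6.43-fold. Adjusted over all 15800 genes, the p-values by limma were 0.00656, 0.00251, 0.0177 and 0.000454. In that fit 3.09%, 5.15%, 5.48% and 14.7% of all genes were called lower. From 2 months on, every level but that of replicate 2 of 6 months lay below 5.61, the level of the filter on dim genes.

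Cryba2, another betaA-crystallin, gave 6.06, 6.20, 5.69 and 5.35 at 1 month and 5.19, 4.89, 5.07 and 4.99 at 2 months, without overlap. It differed from 1 month by -0.79 ± 0.23 at 2 months, -0.63 ± 0.23 at 4 months, -0.36 ± 0.23 at 6 months and -0.59 ± 0.23 at 10 months. None passed the test in the fit with no filter (limma, adjusted p = 0.0544, 0.0943, 0.401 and 0.0628). Replicate 2 of 6 months, at 6.36, was its highest value on any array, against 5.07 to 5.29 in the other 3 arrays of that age.

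Crybb2 and Crybb3, which lie side by side on chromosome 5, did not pass the test at any age. Crybb2 was at 8.03 to 8.55 at 1 month, 7.82 to 8.08 at 2 months, 7.58 to 8.22 at 4 months and 7.88 to 8.09 at 10 months, and the later ages overlapped with 1 month. Its differences from 1 month were -0.40 ± 0.21, -0.38 ± 0.21, -0.07 ± 0.21 and -0.30 ± 0.21 at 2, 4, 6 and 10 months (limma, adjusted p from 0.244 to 0.861). The 95% interval at 2 months ran from -0.84 to 0.03. At 6 months the arrays gave 8.14, 9.12, 7.74 and 7.96, and 9.12 was the highest Crybb2 value of all 20 arrays. Crybb3 was at 7.26 to 7.61 at 1 month and at 6.91 to 7.20 at 6 months, without overlap, and differed by -0.37 ± 0.16 there (adjusted p = 0.117). Its other differences were -0.37 ± 0.16 at 2 months, -0.27 ± 0.16 at 4 months and -0.15 ± 0.16 at 10 months (adjusted p = 0.168, 0.273 and 0.456). Crybb3 did pass at 2, 6 and 10 months when its 8 probe sets were averaged (-0.58, -0.56 and -0.41, adjusted p = 0.0248, 0.0179 and 0.0378), and at 2, 4 and 6 months with array weights (adjusted p = 0.0132, 0.0337 and 0.0259).

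Crygs encodes gammaS-crystallin, the gamma member made in the outer, younger lens fibers. It was at 6.62, 7.53, 6.53 and 6.31 at 1 month and at 5.61, 5.54, 5.31 and 5.64 at 2 months. At 4 months it was at 5.80, 5.73, 5.12 and 6.00, and at 10 months at 5.37, 5.71, 5.45 and 5.18, below 1 month in every array. At 6 months the arrays gave 5.38, 7.28, 5.54 and 5.70, with replicate 2 inside the range of 1 month. Crygs fell by 1.22 ± 0.32 at 2 months (limma, adjusted p = 0.024), by 1.09 ± 0.32 at 4 months (0.0283) and by 1.32 ± 0.32 at 10 months (0.00296), or 2.12- to 2.49-fold. At 6 months it differed by -0.77 ± 0.32 and did not pass (adjusted p = 0.112), whereas without replicate 2 of that age it fell by 1.21 (adjusted p = 0.00226). The calls at 2 and 4 months did not hold in 4 and 3 of 8 fits with 1 array removed, with adjusted p up to 0.0931 and 0.108. Both of these came without replicate 2 of 1 month, when the differences were -0.96 and -0.82. Crygs passed the filter on dim genes through the arrays of 1 month and replicate 2 of 6 months. Its mean over the other 15 arrays was 5.54, under the filter level of 5.61. In the fit with no filter Crygs was called at 2, 4 and 10 months as well (limma, adjusted p = 0.0402, 0.0454 and 0.00534).

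Cryab, the stress-responsive alpha crystallin, did not follow the lens members. Its arrays gave 8.90, 8.99, 8.98 and 8.91 at 1 month and 8.89, 8.87, 8.99 and 8.80 at 2 months. At 4 months they gave 9.20, 8.88, 8.81 and 8.90, at 6 months 8.95, 9.19, 8.79 and 9.07, and at 10 months 9.20, 9.09, 9.15 and 9.25. All 4 arrays of 10 months lay above all 4 of 1 month, and those of 4 and 6 months overlapped with both. The arrays of 2 months overlapped with 1 month and lay below those of 10 months. Its differences from 1 month were -0.06 ± 0.08 at 2 months, 0.00 ± 0.08 at 4 months and 0.06 ± 0.08 at 6 months, with 95% intervals within -0.23 and 0.23. At 10 months Cryab rose by 0.23 ± 0.08, or 1.17-fold (limma, adjusted p = 0.0335), 1 of the 6 tested members where 20.6% of all genes were called higher. The call was lost in 5 of the 8 fits that left out 1 array (adjusted p up to 0.0834), with no filter on dim genes (0.05), with array weights (0.0765) and with the brightest probe set (0.928, a difference of 0.02).

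From 2 months on, limma called 0 of the 6 members between 2 and 4, 4 and 6, 6 and 10 or 4 and 10 months, where 0.118%, 0%, 20.3% and 21.8% of all genes were called. At an unadjusted p under 0.05, which 8.16%, 4.51%, 33.3% and 33.3% of all genes reached, the count was 0, 0, 0 and 1, and the 1 was Cryab at 10 against 4 months (0.23 ± 0.08, adjusted p = 0.058). The Cryaa means of 2, 4, 6 and 10 months were 6.41 ± 0.64, 6.62 ± 0.44, 7.30 ± 1.43 and 6.62 ± 0.29 (SD, n = 4), against 9.14 ± 0.47 at 1 month. Those of Crygs were 5.53 ± 0.15, 5.66 ± 0.38, 5.97 ± 0.88 and 5.43 ± 0.22, against 6.75 ± 0.54. In both genes the spread at 6 months was the widest of the 5 ages. Crybb1 was at 7.51 ± 0.10, 7.72 ± 0.27, 7.56 ± 0.27 and 7.59 ± 0.13 from 2 months on.

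Whether a lens member changed otherwise than Cryab was asked by subtracting Cryab from each gene on each array and comparing the ages with an exact two-sided permutation test. Over 7 genes and 4 ages there were 28 tests, and 18 had an adjusted p of 0.0445, each with an exact p of 0.0286, the smallest that 4 against 4 arrays allow. They were 5 of the 7 genes at 2 months, 4 at 4 months, 2 at 6 months and 7 at 10 months. All 28 tests share the arrays of 1 month and the same Cryab values, so they are not independent of each other. How many of all genes would differ from Cryab in this way was not computed, so the counts have no background. For Cryaa minus Cryab the change from 1 month was -2.67, -2.52 and -2.75 at 2, 4 and 10 months. Crybb1 differed from Cryab at each age, by -1.02, -0.88, -1.09 and -1.23. At 6 months Cryaa (-1.90, exact p = 0.0571), Cryba1 (-1.99, exact p = 0.114) and Crygs (-0.83, exact p = 0.114) did not pass. Crybb2 (-0.53) and Crybb3 (-0.38) passed at 10 months, when Cryab was itself higher. Without replicate 2 of 6 months the count was 0 of 28, since the smallest exact p of 3 against 4 arrays is 0.0571 and the adjusted p of the other ages moved to 0.05. With the brightest probe sets the count was 0 as well, and with the mean of the probe sets it was 21.

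The probe sets of a gene did not all move alike. At 10 months 18 of the 46 crystallin probe sets were called lower and 2 higher, where a limma fit over all 194293 probe sets called 8.98% lower and 6.14% higher. At 2, 4 and 6 months 12, 11 and 8 of the 46 were called lower, where 0.678%, 1.81% and 1.72% of all probe sets were. All 5 Cryaa probe sets were called at 10 months, with differences from -1.70 to -4.62 on the log2 scale. The one with the largest fall went from 9.10 ± 0.61 (SD, n = 4) at 1 month to 4.94 at 2 months, a difference of -4.16 (adjusted p = 0.0218). In Cryba1, 5 of 7 fell at 10 months, with differences between -4.01 and -0.19. The Cryba1 probe set with the smallest difference stayed near its level at 1 month, 7.71 ± 0.19, and differed by -0.19 at 10 months (adjusted p = 0.413).

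In Crygs, 3 of 4 probe sets fell at 10 months. One fell by 3.55 from 7.03 ± 0.90 (adjusted p = 0.00186), and the brightest by 0.42 from 9.26 ± 0.05 (adjusted p = 0.00722). In Crybb1, 3 of 4 fell, by up to 2.33, and the remaining one differed by 0.11 (adjusted p = 0.874). In Crybb3, 1 of 8 probe sets fell, by 1.92 from 7.67 ± 0.67 (adjusted p = 0.00801), while its brightest, at 10.22 ± 0.28, differed by 0.09. No Crybb2 probe set was called, and its differences ran from -1.13 to 0.37. The 2 Cryab probe sets that rose did so by 0.45 and 0.50 (adjusted p = 0.0477 and 0.0304), and its 3 brightest differed by 0.02, 0.22 and 0.01.

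**Figure D3:**
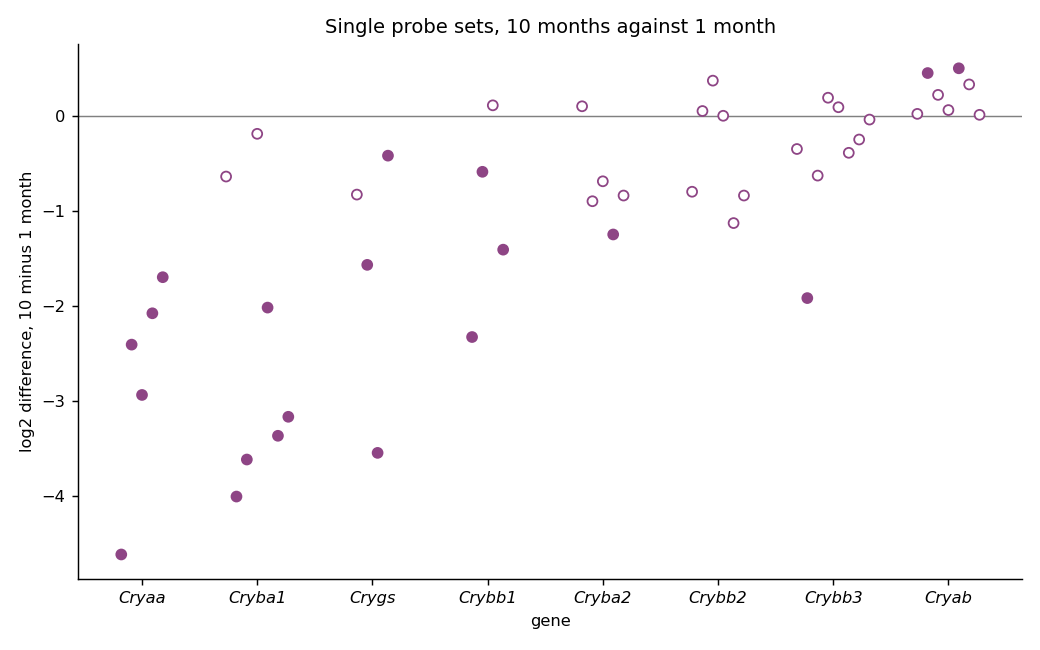
Log2 difference between 10 months and 1 month of each of the 46 crystallin probe sets, grouped by gene; filled circles passed the test over all 194293 probe sets. Every Cryaa probe set is filled and lies between -1.70 and -4.62, whereas Crygs spans -3.55 to -0.42 and the Crybb2 circles are open on both sides of 0.

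Replicate 2 of 6 months had the highest value of its age in 7 of the 8 genes and the highest of the 16 arrays from 2 months on in 5, Cryaa, Cryba1, Cryba2, Crybb2 and Crygs. It stood above the mean of the other 15 of these arrays by 2.65 in Cryaa, 2.94 in Cryba1, 1.74 in Crygs, 1.20 in Cryba2 and 1.17 in Crybb2. The mean of 1 month stood above the same 15 arrays by 2.57, 2.62, 1.21, 0.67 and 0.36 in these genes. In Crybb1 the array was 0.38 above the 15, where 1 month was 1.02 above. The Crybb1 probe set with the largest fall was at 8.49 there, between the 6.51 to 7.54 of the 15 and the 9.06 to 10.34 of 1 month. The other Crybb1 probe sets were within the range of the 15. In Crybb3 the array was at -0.09. In Cryab it was 0.20 above, at 9.19, within the 8.79 to 9.25 of the other arrays.

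The array differed from those of 1 month in Crygc and Crygd, gamma crystallins of chromosome 1 that mark the inner, older lens fibers. Crygc was at 7.19, 6.93, 5.92 and 5.16 at 1 month, at 3.96 in replicate 2 of 6 months and at 3.52 to 4.52 in the other 15 arrays. Crygd was at 6.19, 5.89, 5.32 and 4.79 at 1 month, at 3.40 in that array and at 2.43 to 3.90 in the others. In both genes the arrays of 1 month lay above all later arrays, replicate 2 of 6 months included. Crygb, at 4.57 to 5.83 at 1 month and 4.48 in that array, overlapped with the later arrays (up to 4.97). Cryga was at 5.41 to 6.09 at 1 month and at 5.47 in that array, and overlapped with the later arrays too. Cryge was at 1.92 to 4.04 at 1 month and at 1.75 in that array. In the fit with no filter Crygc fell at each later age (-2.12 to -2.40), as did Crygd (-2.30 to -2.49) and Crygb (-0.86 to -1.24) (limma, largest adjusted p = 0.000807, 0.00035 and 0.0479). Cryga, which passed the filter, and Cryge were not called at any later age. These genes have near-identical copies, so how their signal divides between them is uncertain.

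**Figure D4:**
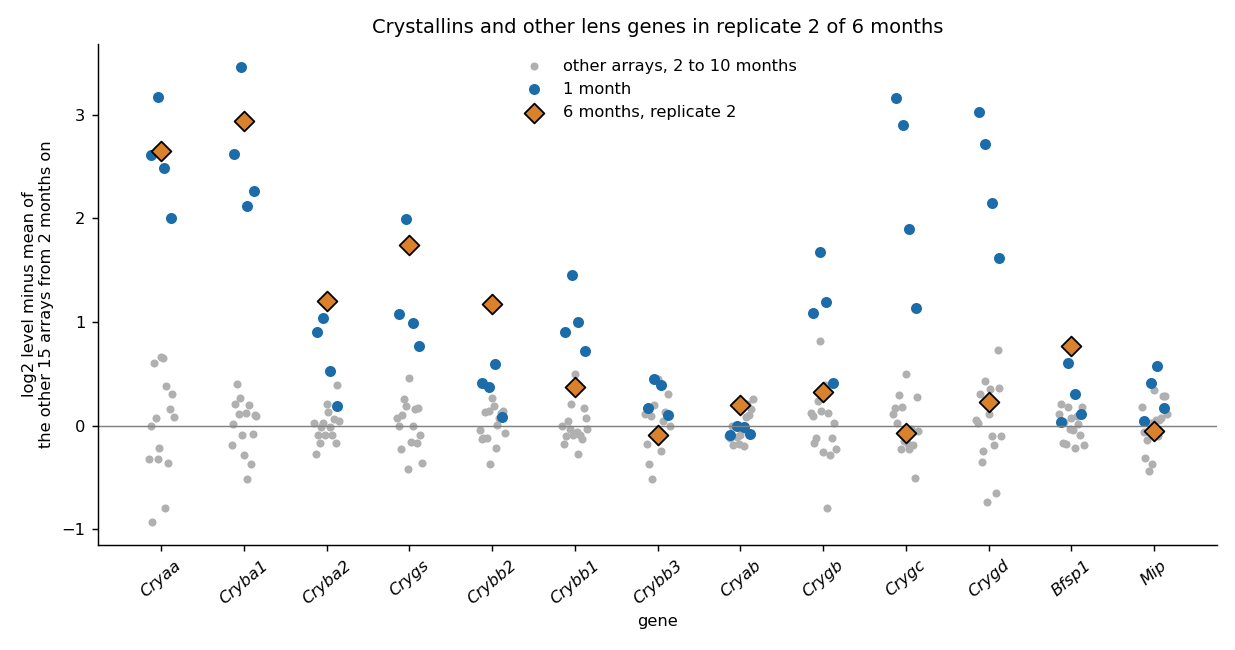
Log2 level of crystallins and other lens genes on each array minus the mean of the 15 other arrays from 2 months on; diamonds mark replicate 2 of 6 months, large circles the 4 arrays of 1 month and small circles the 15 others. The diamond lies with the arrays of 1 month in Cryaa, Cryba1 and Crygs, above them in Cryba2 and Crybb2, and with the later arrays in Crybb3, Crygc and Crygd.

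Other genes of the lens were looked at to judge whether lens tissue came along. Of 13 lens genes other than crystallins, 9 had probe sets and 6 were tested. Called lower were 0, 0, 0 and 1 at 2, 4, 6 and 10 months, and called higher 0, 1, 0 and 1. Of all tested genes 5.27%, 8.24%, 8.46% and 20.7% were called lower and 3.31%, 6.93%, 7.89% and 20.6% higher at these ages, the background for this and the other gene lists. The 1 that fell was Lenep, a gene of lens epithelium (-0.47 ± 0.11, adjusted p = 0.00186), and the 1 that rose was Hsf4, the heat shock factor of the lens (0.28 ± 0.08 at 4 months, adjusted p = 0.026, and 0.46 ± 0.08 at 10 months, 0.000172). The mean of the 9 genes lay at 6.12 to 6.34 at 1 month and at 5.94 to 6.61 at the later ages, and it was 6.30 in replicate 2 of 6 months. Mip, the water channel of lens fibers, was at 5.61 to 6.14 at 1 month and 5.51 in that array. Bfsp1, a filament protein of lens fibers, was at 6.82 in that array, its highest value. It was at 6.09, 6.66, 6.36 and 6.17 at 1 month, against 5.84 to 6.26 in the other 15. Mip differed from 1 month by -0.39, -0.41 and -0.31 at 2, 4 and 6 months (limma, adjusted p from 0.0644 to 0.165). At 10 months it differed by -0.11. Lenep differed by -0.32, -0.29 and -0.21 at 2, 4 and 6 months (limma, adjusted p from 0.0734 to 0.217). Over the later ages Bfsp1 differed by -0.12 to -0.29, Lim2 by -0.05 to 0.08 and Foxe3 by 0.16 to 0.33, none called. With the mean of the 9 lens genes as a covariate, 3, 4, 3 and 4 members were called at 2, 4, 6 and 10 months. That mean was alike at all ages, at 6.24, 6.12, 6.22, 6.17 and 6.26 from 1 to 10 months. It also included Bfsp2, Lgsn and Dnase2b, which were too dim to be tested, so this fit cannot tell what lens RNA adds. How much lens RNA the samples hold, and how much crystallin RNA the retinal cells made, cannot be told apart here.

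Markers of other eye tissues moved on partly different arrays. Of 11 genes of pigment epithelium and pigment cells, 9 were tested, and 0 were called at 2, 4 and 6 months and 3 higher at 10 months (Rpe65 0.98 ± 0.30, Lrat 0.69 ± 0.22 and Stra6 0.58 ± 0.20, adjusted p = 0.0144, 0.0172 and 0.029). Dct, an enzyme of melanin synthesis, was at 9.02 in replicate 2 of 6 months against 6.50 to 6.84 in the other arrays of that age. It was higher still, at 10.54, in replicate 1 of 10 months, where Cryaa was at 6.21. At 1 month Dct was at 7.37 to 7.76. Of the same list Tyr, Tyrp1, Pmel and, by little, Best1 were also above the other arrays of 6 months in replicate 2. Rpe65, Lrat, Rdh5, Ttr, Stra6 and Slc45a2 were not. Optc, made in the ciliary body, was at 7.78 in replicate 2 of 6 months and at 8.67, 8.55 and 8.79 in replicates 1, 3 and 4 of 10 months, against 5.94 to 6.47 at 1 month. It was also at 7.82 and 8.55 in replicates 2 and 3 of 2 months, where Cryaa was at 6.57 and 5.64, and at 6.95 in replicate 3 of 6 months. Krt12, Krt5, Krt14, Aldh3a1 and Kera, listed with Optc, did not stand above the other arrays of 6 months in replicate 2. Of these 6 genes 3 were tested. Only Optc was called higher than at 1 month, at 10 months (1.76 ± 0.61, limma, adjusted p = 0.0256), when 20.6% of all genes were. The part of these tissues in the crystallin values was not tested.

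**Figure D5:**
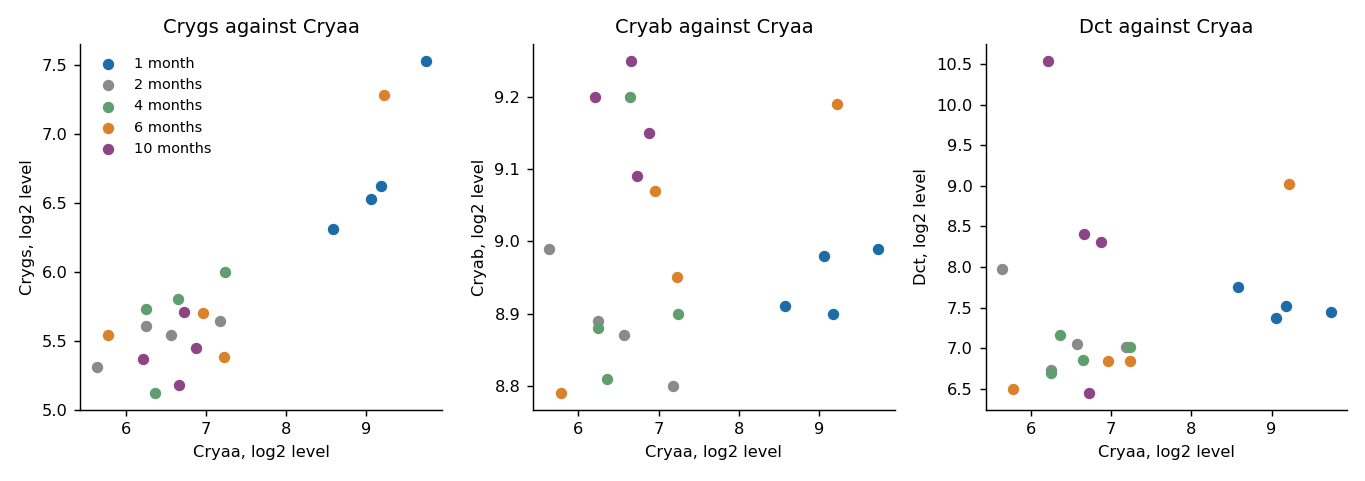
Log2 levels on 20 arrays, coloured by age, of Crygs, Cryab and Dct against Cryaa. Crygs rises with Cryaa, and 1 array of 6 months sits with those of 1 month; Cryab stays between 8.79 and 9.25 and Dct reaches 10.54 on an array with Cryaa at 6.21.

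Within ages, Cryaa varied together with most lens members. Over the 20 arrays, after removing the mean of each age and permuting arrays within age, Cryaa correlated with Crybb2 (Pearson's r = 0.83, permutation adjusted p = 0.00651), Cryba1 (r = 0.82, permutation adjusted p = 0.0136) and Crygs (r = 0.80, permutation adjusted p = 0.00623). It also correlated with Crybb1 (r = 0.75, permutation adjusted p = 0.00287) and Cryba2 (r = 0.74, permutation adjusted p = 0.0155), which makes 5 of 7 pairs. Spearman's rho was 0.59, 0.59, 0.68, 0.65 and 0.49 for these genes, and 4 of 7 pairs passed by it. With Cryab (r = 0.42, permutation adjusted p = 0.221, rho = 0.10) and Crybb3 (r = 0.34, permutation adjusted p = 0.0828, rho = 0.41) the relation did not pass. Replicates 2 and 3 of 6 months, the arrays farthest from the median, were then left out. Pearson's r passed for Crybb1 (0.68) and Crygs (0.63, permutation adjusted p = 0.0198 for both), and rho for 0 of 7. The relations with Cryba1 (0.42), Crybb2 (0.52) and Cryba2 (0.47) did not pass then. The age means removed were still those of all 20 arrays, so these values are not free of the arrays left out.

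The genes most like the lens members were looked up over all tested genes by Pearson's r over the 20 arrays, a description in which ages are shared. For the mean of the measured members other than Cryab they were Ankrd52 (0.83), Tmem150a (0.82), Rgp1 (0.82), Zfp653, Tspoap1, Acrbp, Ovgp1, Limk2, Mast1 and Akap8l (0.79). With the age means removed, r for these 10 was 0.36 to 0.58. For Cryaa alone the list began with Ankrd52 (0.86), Rgp1 (0.82) and Tspoap1 (0.81), followed by Tmem150a, Grk6, Acrbp, Ovgp1, Akap8l, Iffo1 and Zfp653. For Cryab it held other genes, Ror1 (0.86), Ntng1 (0.84), Epb41l4b (0.83), Ptprm, Rbfox1, Ebf3, Slc26a2, Foxp1, Hunk and Sdc3 (0.80), and with the age means removed Ror1 kept 0.84.

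Among Cryab's relatives, the small heat shock proteins, 1 of the 3 tested changed. Of 8 listed, 6 had probe sets. Of all tested genes, 8.46% were called lower at 6 months and 20.7% at 10 months. Hspb6, a relative that is abundant in muscle, fell by 0.23 ± 0.08 at 6 months and by 0.37 ± 0.08 at 10 months (limma, adjusted p = 0.0447 and 0.000594). Hspb2, the neighbour of Cryab, differed by 0.49 ± 0.21 at 10 months (adjusted p = 0.0664) and Hspb8 by 0.14 ± 0.10 (adjusted p = 0.271). In the fit with no filter Hspb3, Hspb7 and Odf1 differed by 0.00, 0.09 and 0.10 at 10 months, with adjusted p of 0.748 or more.

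Of 9 heat shock factors and chaperones, 6 were tested. Hsf1, the main stress-activated factor, fell at each age, by 0.36, 0.34, 0.35 and 0.60 at 2, 4, 6 and 10 months (limma, adjusted p up to 0.00832). At 10 months the chaperone gene Hsph1 fell by 0.67 ± 0.06 (adjusted p = 1.19e-07), and Bag3, a co-chaperone that works with Cryab's relatives, rose by 0.94 ± 0.16 (adjusted p = 0.000115). Of 14 transcription factors known to act on crystallin genes, 11 were tested. Called higher were 0, 2, 1 and 6 and lower 0, 0, 0 and 1 at 2, 4, 6 and 10 months. The shares over all tested genes were 3.31%, 6.93%, 7.89% and 20.6% higher and 5.27%, 8.24%, 8.46% and 20.7% lower. Prox1, which acts in lens fiber differentiation, rose by 0.30, 0.43 and 0.48 at 4, 6 and 10 months (adjusted p = 0.0061, 0.000316 and 1.93e-05). At 10 months Hsf4, Mafa (0.34 ± 0.10, adjusted p = 0.0116) and Sox2 (0.33 ± 0.12, adjusted p = 0.038) rose as well, while Mafg fell by 0.33 ± 0.09 (adjusted p = 0.00623). Which cells of the samples these RNAs came from was not tested.

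Another 14 genes with crystallin names were listed, among them the gamma crystallins of chromosome 1, enzymes and other proteins. Of them 11 had probe sets and 7 were tested, with 1, 0, 0 and 1 called higher and 0, 1, 0 and 2 lower at 2, 4, 6 and 10 months. The shares over all tested genes were 3.31%, 6.93%, 7.89% and 20.6% higher and 5.27%, 8.24%, 8.46% and 20.7% lower. Crym, a thyroid hormone binding protein, rose by 0.25 ± 0.07 at 2 months (limma, adjusted p = 0.0205). Cryzl1, a quinone reductase relative, fell by 0.21 ± 0.07 at 4 months and by 0.64 ± 0.07 at 10 months (adjusted p = 0.0461 and 1.22e-06). Crybg3 fell by 0.33 ± 0.12 and Cryl1 rose by 0.30 ± 0.11 at 10 months (adjusted p = 0.0281 and 0.0405).

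Muller glia, among the retinal cells known to make Cryab, were read by a list of 10 genes, of which 4, 9, 9 and 9 were called higher and 0 lower at 2, 4, 6 and 10 months. Of 11 tested reactive gliosis genes, 7, 6, 6 and 6 were called higher and 0 lower. The median difference of the Muller glia genes from 1 month was 0.22, 0.35, 0.44 and 0.53 at 2, 4, 6 and 10 months and that of the gliosis genes 0.63, 0.72, 0.43 and 0.32, beside -0.06, 0.00, 0.06 and 0.23 for Cryab. Microglia genes were called higher for 7, 5, 1 and 0 of 10, ganglion cell genes for 0, 0, 0 and 4 of 8, and cone genes lower for 1, 2, 3 and 6 of 9. Over all tested genes 3.31%, 6.93%, 7.89% and 20.6% were called higher and 5.27%, 8.24%, 8.46% and 20.7% lower.

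The arrays of 2 months were also those low in the Y-linked genes, so for 2 against 1 month age and the Y-linked level cannot be told apart. With that level as a covariate the count of called members was 1, Crybb1, in place of 3, and Cryaa and Crygs did not pass (-3.21 and -1.68, adjusted p = 0.118 and 0.183). At 4 months, where Cryaa, Crybb1 and Crygs fell as given above, Eif2s3y was at 7.50 to 7.78. This was below its 8.21 to 8.84 at 1 month, so the Y-linked levels of these ages were not alike. It was far above the 3.84 to 4.09 of 2 months, however, and Kdm5d was at 7.16 to 7.48 at 4 months. In replicates 1 and 4 of 10 months Eif2s3y was at 7.44 and 8.10, where Cryaa was at 6.21 and 6.66.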

How the data were processed

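The deposited values are log2 intensities of single probe sets. Per the submitters' processing notes, the authors computed them with RMA. Its version, the array's build and how probe sets were picked: not given in the sources used here. RMA gives arrays a like distribution, so a shift common to all genes would not be seen. The number of arrays, 4 per age, limits the precision. Gene names came from the platform annotation: 179496 had 1 symbol, 1328 several and 13469 none, and only the first were used. Symbols were updated through RefSeq synonyms (2020 changed, 56 kept). Values were summarised per gene by median polish (median of 9 probe sets), and the dimmest 25% of genes (mean under 5.61) were left out of testing.

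Ages were compared with limma 3.58.1 (R 4.3.3) in 1 fit of the 20 arrays with a mean for each age, leaving 15 residual degrees of freedom; p-values were two-sided, Benjamini-Hochberg adjusted over all genes at 0.05, and called lower or higher when they passed. Single probe sets were fitted over all 194293, an alternative chosen after seeing the data. Differences from Cryab used exact permutation of arrays, correlations 100000 permutations within age, adjusted over the 28 tests and the 7 pairs. Cryba4 has no probe set in the table used, so the planned tests that include it were not run. Motifs were searched as letters. The members and the gene lists were chosen with earlier results of these data known. Genes outside the members are named where called, up to 4 per list and comparison, in full for lens, small heat shock and Y-linked lists, and by the 10 highest correlations. Genes given beyond this, Mafg and, with values by array, Cryga, Crygb, Crygc, Crygd, Cryge, Dct and Optc, were chosen after their values were seen. Steps were tested on simulated data, and figures drawn with matplotlib 3.10.9.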

Additional observations from a re-analysis of the deposited data

Results flagged for a closer look

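In 14 genes, the 8 measured members and 6 others given by array, the highest and lowest array of each age were set against the other 3, which gave 70 groups of 4. In 3 of them the highest array stood apart by more than Dixon's limit for the gap over the group's range. Chance passes this limit in about 5% of groups, and 3 of 70 is not above that share. The groups share arrays and many of the genes vary together, so the count cannot judge 1 array. The 6 others, Dct among them, were chosen with their values known. All 3 were replicate 2 of 6 months. Crygs was at 7.28 there, against 5.38 to 5.70 in the other 3 arrays (0.832 of the range). Cryba2 was at 6.36 against 5.07 to 5.29 (just past the limit). Dct was at 9.02 against 6.50 to 6.84 (0.865 of the range). Cryaa and Cryba1, at 9.22 and 7.24 in the same array, did not pass this limit because their other arrays were spread more widely, from 5.78 to 7.23 and from 3.78 to 4.50.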

How the results depend on the processing

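Of 464 values of single members under other settings, 429 kept direction and side of the threshold, 22 lost the call and 13 gained one, and none reversed. The count of called members, 3, 3, 2 and 4 at 2, 4, 6 and 10 months against 1 month and 0 for 10 against 4 months, differed under the following settings. With the brightest probe set it was 1 at 2 months, 0 at 4 months, 2 at 10 months and 1 for 10 against 4 months. With the dimmest 50% of genes left out, which removes Cryaa, Crybb3 and Crygs, it was 1, 1, 1 and 2, and 1 for 10 against 4 months. For 10 against 4 months it was also 1, Cryab, with array weights, with trend and robust eBayes, with the lens genes as a covariate and without replicate 1 of 4 months. The count for any age was 5 with array weights in place of 3. Given the Y-linked level as covariate, the count at 2 months was 1, and the count of probe sets 0 at 2 months and 13 at 10 months, in place of 12 and 20. With only the 8 arrays of both ages the probe set count at 6 months was 0 in place of 8. For these other values the cause was not tested.

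Leaving out 1 array at a time, the count of members ranged from 1 to 3 at 6 months and from 0 to 1 for 10 against 4 months. The count of probe sets ranged from 4 to 11 at 2 months and from 4 to 17 at 6 months, with 17 reached without replicate 2 of 6 months. The tests against Cryab passed 0 times with the brightest probe set and 0 times without replicate 2 of 6 months, in place of 18. The correlations with Cryaa passed 0 times with the brightest probe set and 2 times without the arrays farthest from the median, in place of 5.

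Arrays with the same replicate number deviated together no more than others did. Their correlations ran from -0.573 to 0.563 (median -0.031, 40 pairs), against -0.612 to 0.646 (median -0.0025, 120 pairs) for different numbers. This shows no pairing by number over all tested genes, but it cannot exclude a shared handling of some arrays. Replicate 2 was the highest of 1 month in 7 of the 8 measured members, and the highest of 6 months in 7. A replicate block gave counts of 3, 3, 2 and 4 called members at 2, 4, 6 and 10 months and changed no call.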
